A study of Mus musculus with 17 samples.

Results

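The genes described here encode subunits and regulators of the sodium pump and of a related potassium pump: Atp1b1, Atp1b3, Fxyd2, Fxyd5 and Atp12a. They were found by matching mouse Ensembl identifiers to these symbols, which gave 5 of the 55487 gene identifiers in the count table. Their transcripts were counted in kidneys of 9 db/db mice and 8 db/m mice, 1 library per animal, all males aged 16 weeks. The db/db animals carry 2 mutant copies of the leptin receptor gene Lepr in every cell, and the db/m animals carry 1. The db/db mouse is a model of obesity with type 2 diabetes, and its obesity, high blood glucose and missing leptin receptor signal cannot be told apart in this design.

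The sodium pump (Na+/K+-ATPase) sits in the basolateral membrane of tubule cells, where it moves sodium out of the cell and potassium into it at the cost of ATP. This sodium gradient drives nearly all transport along the nephron. A catalytic α subunit is paired with a glycosylated β subunit that the enzyme needs to fold and to reach the membrane. Small membrane proteins of the FXYD family bind the pair and tune its affinity for ions. Atp12a encodes the catalytic subunit of the nongastric proton-potassium pump, a close relative that takes up potassium at the apical membrane of collecting duct cells.

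Atp1b1 and Atp1b3 encode alternative partners of the same α subunit, and their transcripts varied in opposite directions from animal to animal, so the 250 bases before the start of each gene are shown. Capitals mark the TATA motif (TATAAA on either strand, or TATATA), the GC box (GGGCGG or its complement CCGCCC) and the CCAAT box (CCAAT or ATTGG). The TATAAA and TATATA forms can overlap each other. The promoter table matched Atp1b1, Atp1b3 and Fxyd5 by symbol, and not Fxyd2 and Atp12a. The sequences are from RefSeq on GRCm38.p6, both on the minus strand, at chr1:164458356-164458605 for Atp1b1 and chr9:96364432-96364681 for Atp1b3.
Atp1b1: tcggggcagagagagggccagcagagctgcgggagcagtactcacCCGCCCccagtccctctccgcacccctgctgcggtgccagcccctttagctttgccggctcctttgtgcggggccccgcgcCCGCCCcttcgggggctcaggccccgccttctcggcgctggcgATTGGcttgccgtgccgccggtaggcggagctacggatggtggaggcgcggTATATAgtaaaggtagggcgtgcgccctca
Atp1b3: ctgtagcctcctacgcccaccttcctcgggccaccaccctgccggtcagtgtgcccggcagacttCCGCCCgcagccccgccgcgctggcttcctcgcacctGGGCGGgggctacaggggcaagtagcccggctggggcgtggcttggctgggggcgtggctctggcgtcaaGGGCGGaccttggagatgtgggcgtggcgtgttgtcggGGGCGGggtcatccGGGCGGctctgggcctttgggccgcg
The Atp1b1 window holds 1 TATA motif, 2 GC boxes and 1 CCAAT box, and 70.4% of its bases are G or C. The Atp1b3 window holds 5 GC boxes, no TATA motif and no CCAAT box, at 73.6% G or C. Of 32851 windows of this length in the promoter table, 15.6% hold the TATA motif, 32.7% the GC box and 33.8% the CCAAT box. A match is only a description of these letters. The table gives a second start for Atp1b3, which was not used because it lies in no transcript of the GENCODE annotation.

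Libraries held 3256427 to 7627747 gene counts. All 10 proximal tubule markers were detected, with a summed level of 14867 to 21340 CPM (counts scaled to a common library total) in db/db and 12212 to 17057 CPM in db/m libraries, as in kidney. Groups follow the sample titles. The genotype field states the opposite for all 17 samples, and if that field were the correct label all directions below would be the other way. The library numbers of db/m animals are all below those of db/db animals, so a batch that followed the number cannot be told apart from the group. The db/db replicate 8 library stood farthest from the rest on principal component 1, with a score of 79.2, and had the lowest mitochondrial share at 22.02% of counts. The labels' protocol speaks of cells in plates while the tissue is given as kidney.

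None of the 4 members that passed the filter on low counts changed between the groups in edgeR's quasi-likelihood test, at an adjusted p under 0.05 over all 12131 genes tested. Of all genes tested, 7.39% passed, 3.91% as higher and 3.49% as lower in db/db. DESeq2 called none of the 4 either, and 1 of them, Atp1b1, had an unadjusted edgeR p under 0.05, as did 21.1% of all genes tested. Atp12a was too rare for the filter and is described from its counts. As the kidneys were measured in bulk, fewer cells of a type and less RNA per cell cannot be told apart.

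Atp1b1 encodes β1, the main β subunit of the kidney. Its level was lowest at 3784, median 4853 and highest at 7213 CPM in db/db kidneys, against 3013, 3863 and 5048 CPM in db/m kidneys. The groups overlapped, with 3 of 9 db/db libraries above every db/m library, and replicates 7 and 8 well apart at 7213 and 6622 CPM. Atp1b1 averaged 4999 ± 1175 CPM in db/db (SD, n = 9) and 4028 ± 689 CPM in db/m (SD, n = 8), a log2 fold change of 0.31 (SE 0.14, 95% interval 0.02 to 0.61). The edgeR p was 0.0398 before and 0.211 after adjustment, and permuting the group labels exactly (two-sided, on mean log2 CPM) gave an unadjusted p of 0.0478. Without db/db replicates 7 and 8 the log2 fold change was 0.14 (adjusted p = 0.564). Nme7 overlaps Atp1b1 on the opposite strand, and the strand setting of the counting is not given in the sources used here, so reads of these 2 genes may not be separated, though all reads assigned to Nme7 came to 604 counts, against 203006 for Atp1b1 in the db/db libraries alone.

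Atp1b3 encodes β3, which can replace β1 in the pump and is made at a low level in the kidney. Its level was lowest at 31.1, median 44.5 and highest at 56.7 CPM in db/db kidneys, against 30.3, 38.6 and 73.4 CPM in db/m kidneys. All db/db libraries lay inside the db/m range, whose top was 1 library, replicate 8. The summed levels of 3 marker lists were also highest in that library: 5 adipocyte markers, at 53.8 to 683 CPM in db/db and 70.2 to 1178 CPM in db/m, 8 fibroblast and mural cell markers, at 168 to 363 CPM in db/db and 129 to 406 CPM in db/m, and 5 urothelium markers, at 10.47 to 55.2 CPM in db/db and 0.230 to 91.8 CPM in db/m. No marker of these lists was at 0 throughout, and their part in the Atp1b3 values was not tested. The means were 43.0 ± 9.84 CPM in db/db (SD, n = 9) and 42.9 ± 14.4 CPM in db/m (SD, n = 8). The log2 fold change was -0.00 with a 95% interval of -0.37 to 0.37 (edgeR adjusted p = 0.998), which leaves room for a change of up to that size in either direction.

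**Figure D1:**
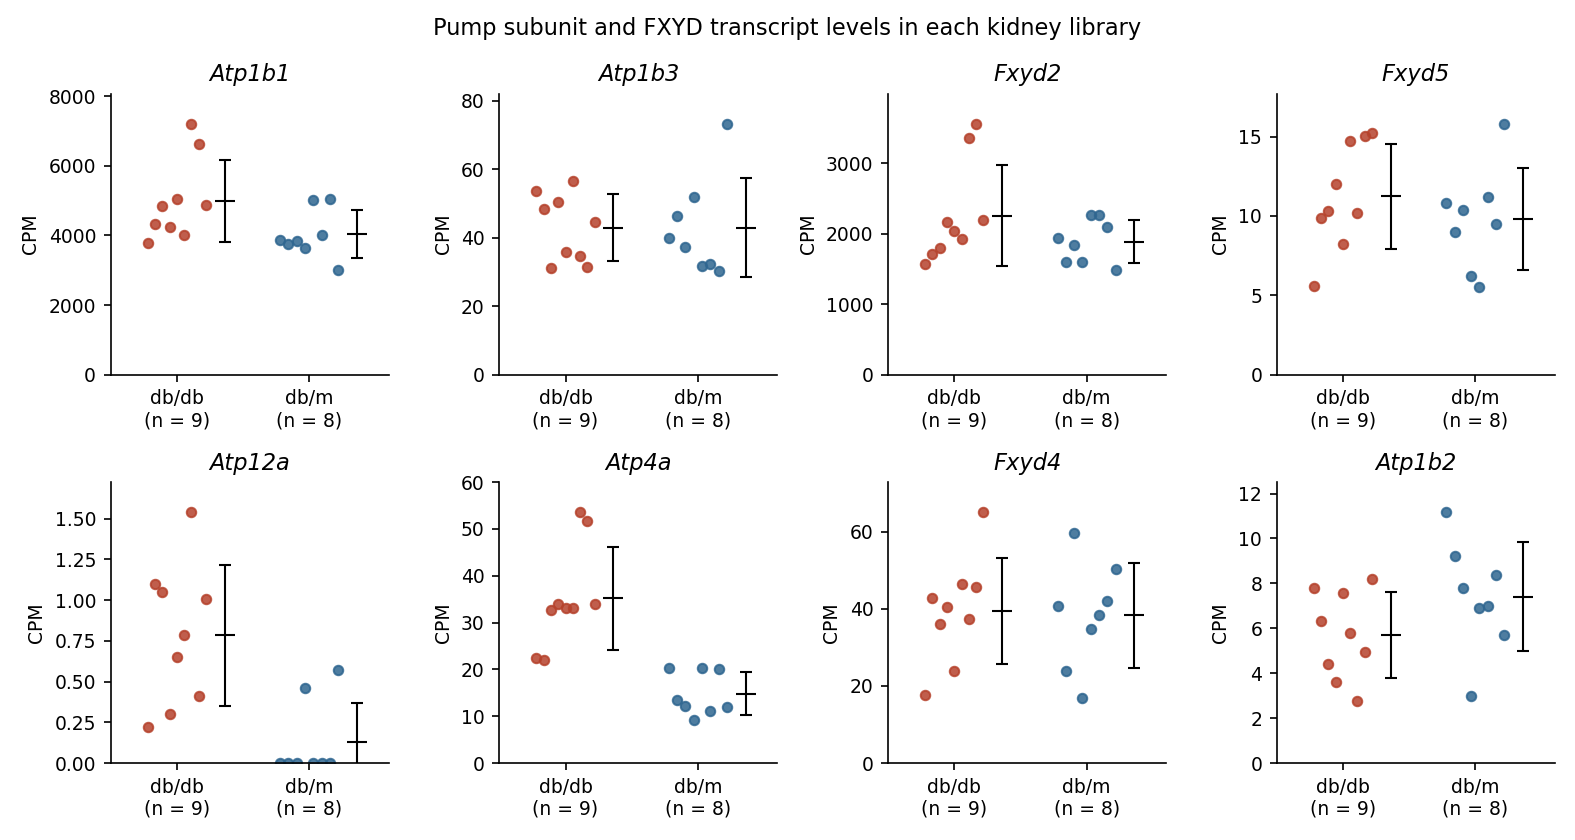
Level in CPM (linear axes from 0) of the 5 members and of Atp4a, Fxyd4 and Atp1b2 in each library, db/db left and db/m right; each point is 1 animal, the horizontal line the group mean and the bar ± 1 SD. The 9 db/db libraries lie above the 8 db/m libraries for Atp4a, while the groups overlap for Atp1b1, Atp1b3, Fxyd2, Fxyd5, Fxyd4 and Atp1b2.

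The levels by library show that the members span a wide range in the kidney. Because each read marks the 3′ end of a transcript, long transcripts do not yield more reads than short ones, and CPM can be set side by side between genes. In both groups Atp1b1 stood highest, Fxyd2 next, then Atp1b3 and Fxyd5, with Atp12a at the bottom. The lowest Atp1b1 level, 3013 CPM in a db/m animal, lay below the highest Fxyd2 level, 3565 CPM in a db/db animal, while the ranges of Fxyd2 and Atp1b3, of Atp1b3 and Fxyd5 and of Fxyd5 and Atp12a did not meet. Within each library Fxyd2 stood at 0.370 to 0.538 times Atp1b1 in db/db and 0.416 to 0.566 times in db/m.

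Fxyd2 encodes the γ subunit, the main FXYD protein of the kidney pump, which lowers its affinity for sodium. Its level was lowest at 1566, median 2042 and highest at 3565 CPM in db/db kidneys, against 1486, 1886 and 2273 CPM in db/m kidneys. The groups overlapped apart from db/db replicates 7 and 8, at 3364 and 3565 CPM, which were above all other libraries. These libraries also had the highest summed levels of the proximal tubule markers, 21340 CPM in replicate 7 and 20873 CPM in replicate 8. Markers of the thick ascending limb, a segment rich in the pump, summed to 3308 and 2990 CPM in them, replicate 7 being the highest in db/db. The ranges of this sum were 1323 to 3308 CPM in db/db and 1937 to 3953 CPM in db/m. The part of these segments in the Fxyd2 and Atp1b1 values was not tested. The means were 2258 ± 716 CPM in db/db (SD, n = 9) and 1888 ± 309 CPM in db/m (SD, n = 8), with a log2 fold change of 0.26 (SE 0.16, 95% interval -0.08 to 0.60, edgeR adjusted p = 0.387). Without db/db replicates 7 and 8 it was 0.02 (adjusted p = 0.969).

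Fxyd5 encodes dysadherin, an FXYD protein with a long extracellular part that also affects adhesion between cells. Its level was lowest at 5.55, median 10.3 and highest at 15.3 CPM in db/db kidneys, against 5.53, 9.94 and 15.8 CPM in db/m kidneys. The 2 ranges were nearly the same, but the db/m top was 1 library, replicate 8, and the next stood at 11.2 CPM. The means were 11.2 ± 3.32 CPM in db/db (SD, n = 9) and 9.80 ± 3.19 CPM in db/m (SD, n = 8), a log2 fold change of 0.19 (SE 0.22, 95% interval -0.26 to 0.64, edgeR adjusted p = 0.659). Without db/m replicate 8 the log2 fold change was 0.33 (edgeR adjusted p = 0.423). A library held 24 to 121 reads of this gene, so it was measured less precisely than Atp1b1 or Fxyd2.

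Atp12a transcripts were near the limit of detection. The db/db libraries, replicates 1 to 9, held 1, 4, 5, 1, 3, 3, 5, 2 and 8 counts, and of the db/m libraries replicate 4 held 2, replicate 8 held 3 and the other 6 held 0. Every db/db library thus had at least 1 read and 2 of 8 db/m libraries had any, 32 reads of 40207588 in db/db and 5 of 38604991 in db/m. A count of 0 allows up to 3 counts in a library, which comes to 0.393 to 0.921 CPM at these depths, so single libraries cannot show absence. The pooled rate was 0.796 CPM in db/db and 0.130 CPM in db/m, a ratio of 6.14 (95% exact interval 2.38 to 20.2, covering counting error only and not the spread between animals).

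In a fit over all 25107 genes with any count, Atp12a had a log2 fold change of 2.36 (SE 0.72, 95% interval 0.89 to 3.84) and an edgeR adjusted p of 0.0712, just outside the threshold. In that fit 3.28% of genes were called. DESeq2 gave 2.58 and an adjusted p of 0.0418, and the exact permutation test over the 17 libraries an unadjusted p of 0.00136. The edgeR call depends on single libraries: the adjusted p was 0.0499 with db/m replicate 4 left out, 0.0181 with db/m replicate 8 left out and 0.0439 with db/db replicate 1 left out, and stayed above 0.05 when any other library was left out. Gm10873, antisense to Atp12a, had no count in any library.

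The gastric counterpart of Atp12a, Atp4a, which encodes the catalytic subunit of the gastric proton-potassium pump, was the only gene called among the 9 tested of the 15 sodium pump, proton pump and FXYD genes listed. It was lowest at 21.95, median 33.1 and highest at 53.6 CPM in db/db kidneys, against 9.20, 12.9 and 20.3 CPM in db/m kidneys. The groups did not overlap, which held for 1.78% of all genes tested. Atp4a rose to 35.2 ± 10.99 CPM in db/db (SD, n = 9), against 14.8 ± 4.59 CPM in db/m (SD, n = 8), a log2 fold change of 1.24 (SE 0.20, edgeR adjusted p = 0.000338). Without db/db replicates 7 and 8, its highest libraries, the log2 fold change was 1.02 (adjusted p = 0.00106). The β subunit of the gastric pump, Atp4b, had 0 counts in db/db and 1 count in db/m libraries.

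Both proton-potassium pumps are known in the kidney from the collecting duct. Of 9 intercalated cell markers, 4 were called higher in db/db (Atp6v1g3, Atp6v0d2, Slc4a1 and Aqp6) and none lower, and their summed level was 303 to 394 CPM in db/db and 208 to 281 CPM in db/m libraries, without overlap. Of 8 principal cell markers, 4 were called higher (Aqp2, Aqp3, Scnn1b and Scnn1g) and 1 lower (Aqp4), with a summed level of 691 to 1684 CPM in db/db and 315 to 1037 CPM in db/m. Beside these counts, 3.91% of all genes tested were called higher and 3.49% lower. Leaving out single libraries gave 2 to 4 higher calls in either list. The count was 2 for intercalated cells without db/db replicate 7 or 9 or db/m replicate 2 or 4, and 2 for principal cells without db/db replicate 9 or db/m replicate 2. Slc4a1 and Scnn1g each lost the call in 11 of 17 such fits and Aqp6 in 4, while Atp6v1g3, Atp6v0d2, Aqp2 and Aqp4 were called in all 17. Over 7 other settings, higher calls ranged from 0 to 4 for intercalated cells and from 0 to 5 for principal cells. Lower calls for principal cells ranged from 0 to 1, so no marker of either list was called under every setting. No marker of either list was at 0 in all libraries. Their part in the Atp4a and Atp12a values was not tested.

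**Figure D2:**
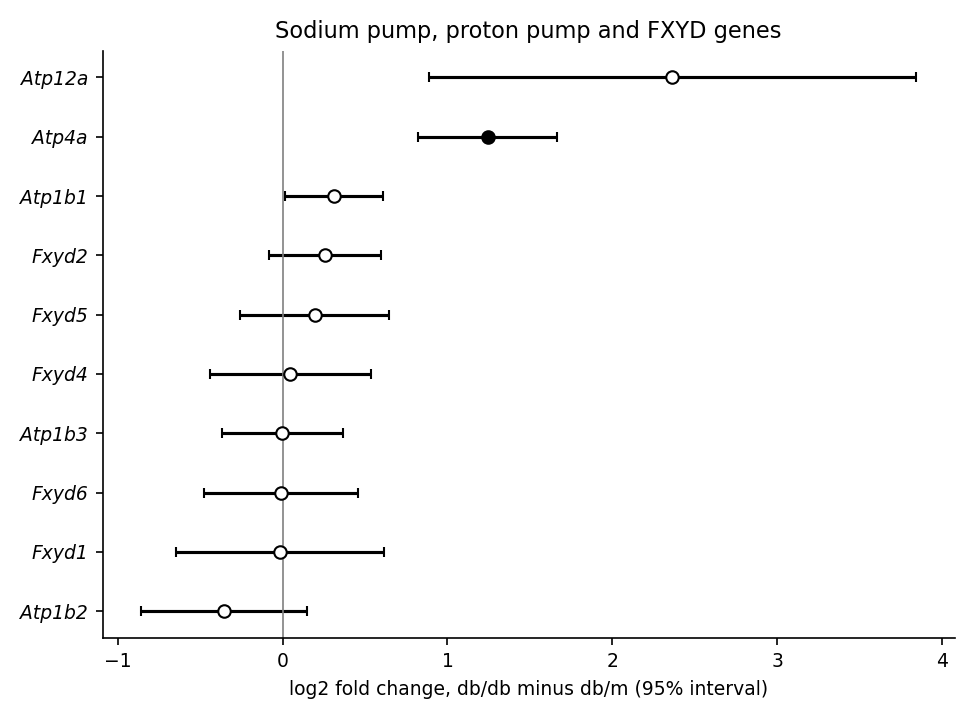
Log2 fold change (db/db minus db/m) with its 95% interval for the 9 tested genes of the pump and FXYD list and for Atp12a, which is from the fit over all genes with any count; the filled point is the gene called at an adjusted p under 0.05. Only the intervals of Atp4a, Atp12a and Atp1b1 leave out 0, and of these Atp4a was called.

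The fold changes of the whole list place the members among related genes. Among the other β and FXYD genes no call was made. Atp1b2, the β2 gene first known from glia, averaged 5.71 ± 1.92 CPM in db/db (SD, n = 9) and 7.40 ± 2.43 CPM in db/m (SD, n = 8), a log2 fold change of -0.35 (edgeR adjusted p = 0.430). Atp1b4 had no count in any library. Fxyd4, the corticosteroid-induced regulator of the collecting duct pump, averaged 39.5 ± 13.7 CPM in db/db (SD, n = 9) and 38.3 ± 13.6 CPM in db/m (SD, n = 8), a log2 fold change of 0.05 (95% interval -0.44 to 0.53). Fxyd1, or phospholemman, and Fxyd6 had log2 fold changes of -0.02 and -0.01. Atp1a4, the sperm α4 gene, had 1 count in db/db and 0 in db/m. Fxyd3 reached at most 6.43 CPM in db/db and 6.48 CPM in db/m and failed the filter, and Fxyd7 had 5 counts in db/db and 9 in db/m.

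Ratios within a library do not depend on how libraries are scaled, and none of the 3 tested passed the test between the groups. Atp1b3 made up 0.918 ± 0.365% of the Atp1b1 and Atp1b3 counts together in db/db (SD, n = 9) and 1.13 ± 0.576% in db/m (SD, n = 8), a difference of -0.208 percentage points (exact two-sided permutation p = 0.412, 0.618 after adjustment over the 3 ratios). Without db/m replicate 8 this difference was -0.0289, and without both replicate 8 libraries it was 0.0267. The log2 ratio of Fxyd2 to Atp1b1 was -1.17 ± 0.18 in db/db (SD, n = 9) and -1.09 ± 0.14 in db/m (SD, n = 8; exact permutation p = 0.337, adjusted 0.618). The log2 ratio of Fxyd5 to Fxyd2 was -7.66 ± 0.45 in db/db (SD, n = 9) and -7.64 ± 0.60 in db/m (SD, n = 8; exact permutation p = 0.948). Atp1b3 thus made up about 1% of the Atp1b1 and Atp1b3 counts in kidneys of either group. The spread of this share between animals was larger than its difference between groups. The proteins were not measured here.

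**Figure D3:**
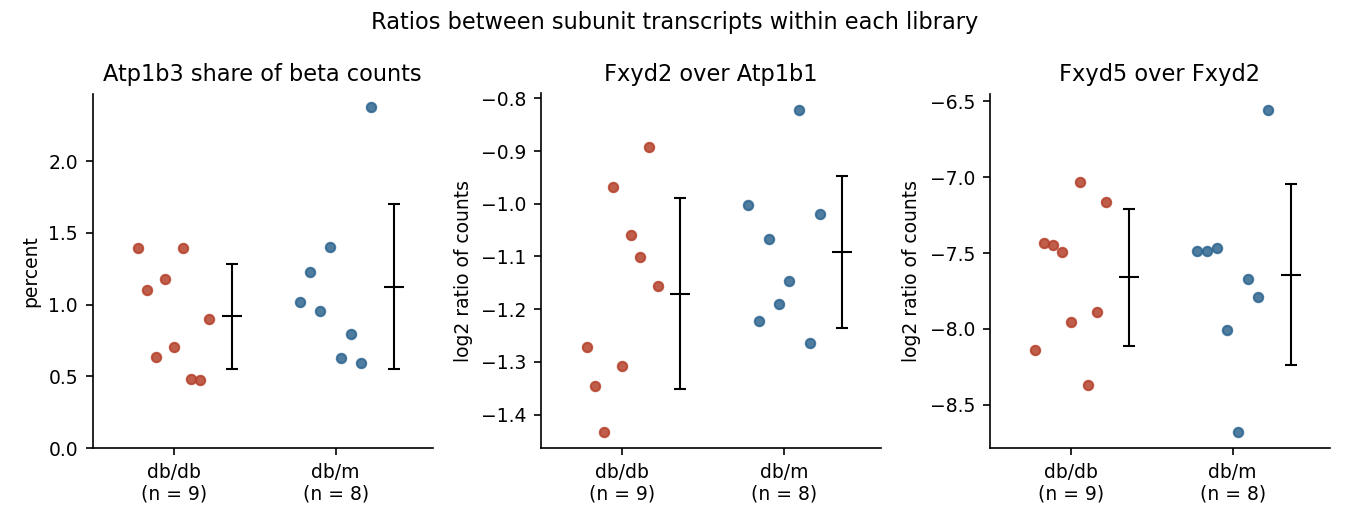
Ratios between subunit counts within each library (share in percent, axis from 0, or log2 ratio), db/db left and db/m right; points are animals, the horizontal line the group mean and the bar ± 1 SD. The db/m replicate 8 library has the highest Atp1b3 share at 2.38%, and the groups overlap in all 3 ratios.

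Between animals of a group, the 2 β genes moved in opposite directions. In db/db, Atp1b1 and Atp1b3 log2 CPM had Pearson's r of -0.80 (exact permutation p = 0.00660, 0.0198 after Benjamini-Hochberg adjustment over 12 relations) and Spearman's rho of -0.80 (exact p = 0.0138, n = 9). In db/m, r was -0.89 (exact p = 7.44e-05, adjusted 0.000893) and rho -0.98 (exact p = 0.000397, n = 8). Leaving out the 2 libraries farthest from the median of Atp1b1 gave -0.84 in db/db and -0.95 in db/m, so the relation does not rest on them. In db/m these were replicates 5 and 7. Replicate 8, with the lowest Atp1b1 and highest Atp1b3, stayed in, so its part in the db/m relation was not tested. The groups' means of Atp1b3 hardly differed while the animals within each group did.

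Atp1b1 and Fxyd2 moved together. Their r was 0.91 in db/db (exact permutation p = 0.00350, adjusted 0.0140; rho 0.77, exact p = 0.0214, n = 9) and 0.82 in db/m (exact p = 0.00890, adjusted 0.0214; rho 0.90, exact p = 0.00456, n = 8). Without the 2 libraries farthest from the median of Atp1b1, r was 0.53 in db/db (exact p = 0.216, n = 7) and 0.77 in db/m (exact p = 0.0708, n = 6). In db/db the libraries left out were replicates 7 and 8, so r was lower without them. With so few libraries left, these p cannot show whether the relation rests on the libraries left out. Atp1b3 and Fxyd2 were opposed in db/m, with r of -0.92 (exact p = 0.000595, adjusted 0.00357, n = 8). Leaving out the 2 db/m libraries farthest from the median of Atp1b3 gave -0.91. In db/db the r of Atp1b3 and Fxyd2 was -0.57 (exact p = 0.119, adjusted 0.204, n = 9).

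**Figure D4:**
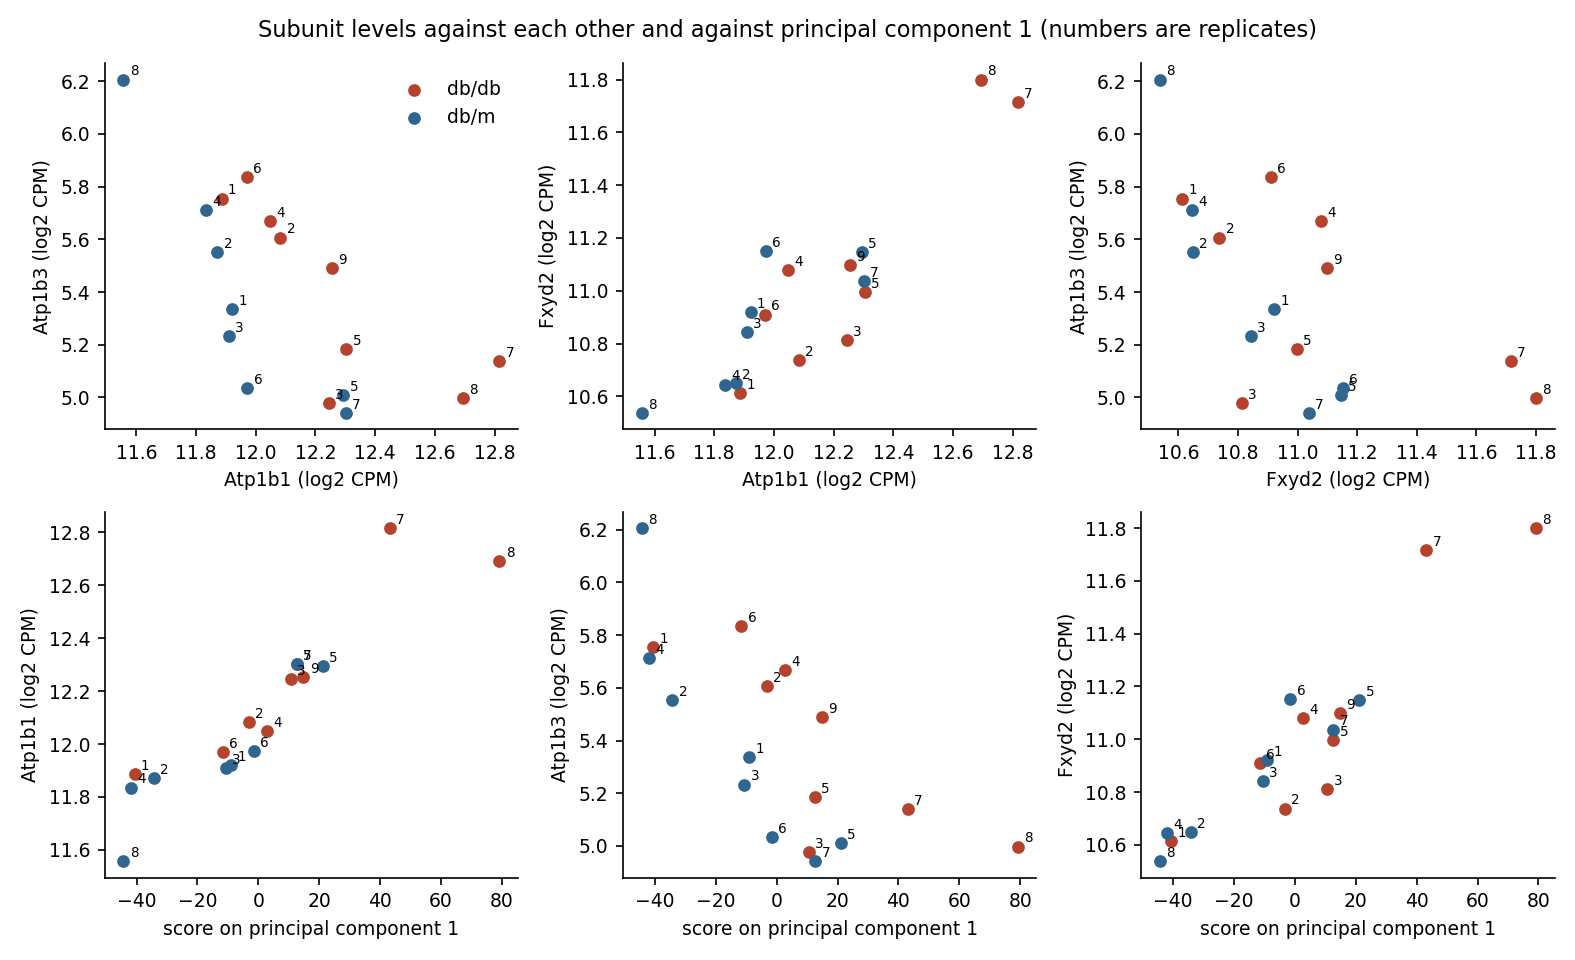
Log2 CPM of subunit genes against each other (top) and against the library's score on principal component 1 of all tested genes (bottom, no unit); red points are db/db and blue points db/m animals, and numbers are replicates. Atp1b3 falls where Atp1b1 rises in both groups, and db/db replicates 7 and 8 lie alone at high Fxyd2, replicate 8 with the highest score, 79.2.

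Fxyd5 had no relation with an adjusted p under 0.05 to any of Atp1b1, Atp1b3 and Fxyd2 in either group.

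These relations run along the main axis of variation among libraries. Principal component 1 held 32.8% of the variance of log2 CPM over all tested genes. Atp1b1 had r of 0.91 with it in db/db and 0.90 in db/m, Fxyd2 0.92 and 0.94, and Atp1b3 -0.76 and -0.91. Fxyd5 had 0.55 in db/db and -0.32 in db/m. These r are over 9 and 8 libraries and are given as a description, since the score is computed from the same libraries.

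Many genes shared the members' pattern across animals, taking as likeness the lower of the 2 within-group r over 9 db/db and 8 db/m libraries among 6555 genes of sufficient level. For Fxyd2, 400 genes had a likeness of at least 0.8, led by S100a1 (0.99), Cox4i1, a subunit of cytochrome c oxidase (0.98), and Fis1, a mitochondrial fission factor (0.98). For Atp1b1 there were 269, led by Sardh, the mitochondrial sarcosine dehydrogenase (0.93), B230118H07Rik (0.93) and Ndufb7, a subunit of respiratory complex I (0.91). For Atp1b3 there were 75, led by Tmed9, a cargo receptor of the early secretory pathway (0.92), Ngrn (0.91) and Scd2, a fatty acid desaturase (0.89). Among these 9 genes, S100a1 and Sardh were called higher in db/db, at log2 fold changes of 0.86 (adjusted p = 0.0158) and 0.67 (adjusted p = 0.0379).

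In 6 lists of genes around the pump, its own family included, 11 genes were called higher and 1 lower. Over all genes tested, 3.91% were called higher and 3.49% lower. Of 11 genes for apical sodium entry, 5 were called higher in db/db and 0 lower. The log2 fold changes of all 11 were above 0, against 50.5% of all genes tested. Their median was 0.46, against 0.00 for all genes tested. Slc6a19, the neutral amino acid carrier of the proximal tubule, averaged 330 ± 62.9 CPM in db/db (SD, n = 9) and 173 ± 47.9 CPM in db/m (SD, n = 8), a log2 fold change of 0.93 (edgeR adjusted p = 0.000461). The subunits of the epithelial sodium channel, which hands sodium to the pump in the collecting duct, had log2 fold changes of 0.68 for Scnn1a (adjusted p = 0.00303), 0.55 for Scnn1b (adjusted p = 0.0217) and 0.89 for Scnn1g (adjusted p = 0.0358), the last outside the naming rule. Slc5a2, the glucose carrier SGLT2, stood at 0.46 (adjusted p = 0.0277). Leaving out single libraries in turn took the call from Scnn1g in 11 of 17 fits, from Slc5a2 in 6 and from Scnn1b in 1. The count of higher calls in this list was then 3 to 5, and it was 3 without db/db replicate 5 and without db/m replicate 1, 2, 3, 6 or 8.

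Of 6 basolateral channels and carriers, 2 were called higher and 0 lower, with a median of 0.34. Slc8a1, the sodium-calcium exchanger of the distal tubule, averaged 148 ± 31.5 CPM in db/db (SD, n = 9) and 80.3 ± 13.7 CPM in db/m (SD, n = 8), without overlap, a log2 fold change of 0.89 (edgeR adjusted p = 0.000203). Kcnj10, the potassium channel that returns potassium taken in by the pump, stood at 0.57 (adjusted p = 0.0139). Beside these, 6 of 8 distal convoluted and connecting tubule markers were called higher, Slc8a1 among them, against 3.91% of all genes tested. Slc12a3, at 0.10 (edgeR adjusted p = 0.685), and Pvalb, at 0.47 (adjusted p = 0.0562), were not called. The summed levels were 2437 to 4017 CPM in db/db and 1526 to 2166 CPM in db/m, without overlap. S100g, the marker with the highest level, averaged 1320 CPM in db/db and 649 CPM in db/m. The part of these markers in the lists was not tested.

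**Figure D5:**
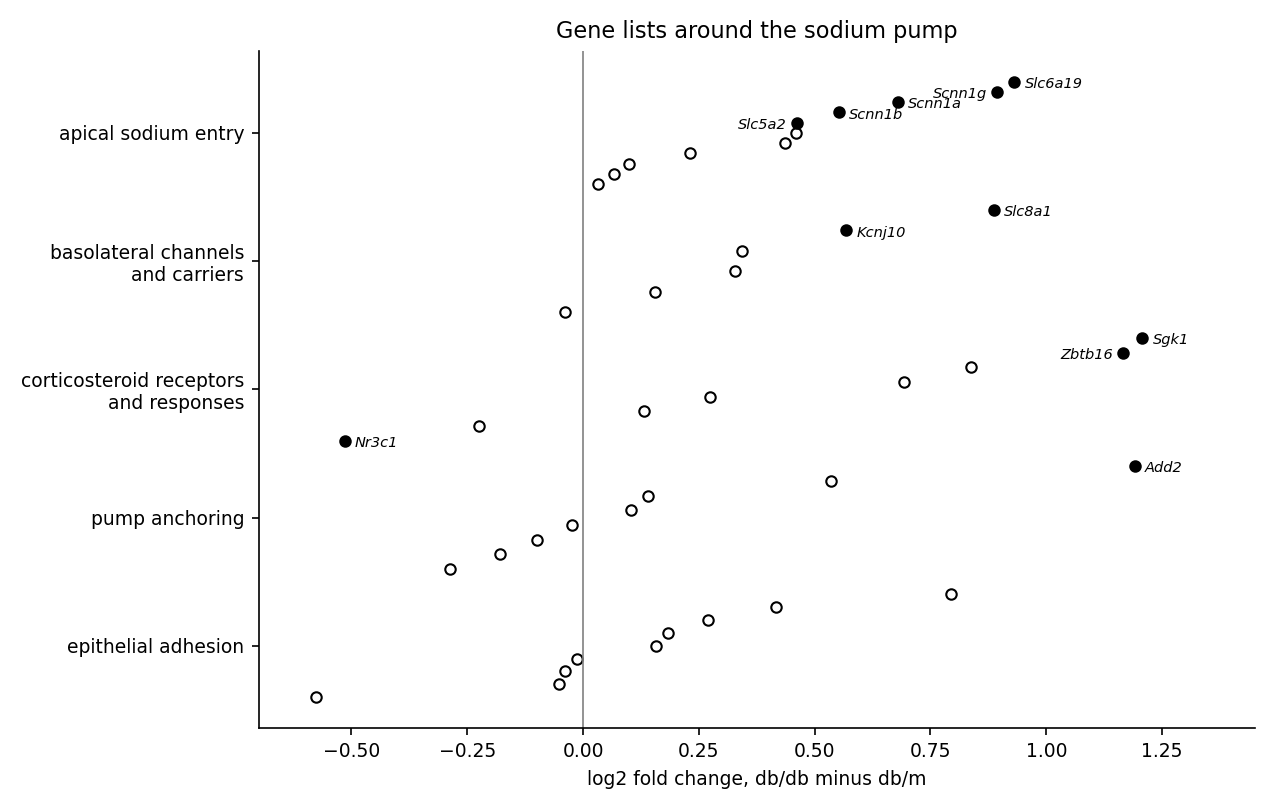
Log2 fold change (db/db minus db/m) of each tested gene in 5 lists around the pump; filled points are genes called at an adjusted p under 0.05, with their names. Vertical position within a list only orders the genes. All 11 apical genes lie right of 0, while the adhesion list holds no called gene.

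In the plot of lists, corticosteroid receptors and response genes had calls in both directions, and 6 of the 8 tested had a fold change above 0. Sgk1, the kinase that raises sodium channel and pump activity, rose to 98.8 ± 38.8 CPM in db/db (SD, n = 9), against 42.7 ± 17.04 CPM in db/m (SD, n = 8), a log2 fold change of 1.21 (edgeR adjusted p = 0.00605). Zbtb16, a glucocorticoid-induced transcription factor, stood at 1.17 (adjusted p = 0.0227, lost in 2 of 17 fits without 1 library), and Nr3c1, the glucocorticoid receptor, at -0.51 (adjusted p = 0.0217). These were 2 higher and 1 lower of 8 tested genes, with a median of 0.48. Without db/db replicate 9 or db/m replicate 4 it was 1 higher.

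Few genes of the remaining lists were called. Among 8 tested anchoring and trafficking genes, Add2, the β form of the adducin family that links membranes to spectrin, was called higher, with 5.20 ± 1.94 CPM in db/db (SD, n = 9) and 2.23 ± 1.03 CPM in db/m (SD, n = 8), a log2 fold change of 1.19 (edgeR adjusted p = 0.0125), and the list median was 0.04. Of 9 adhesion genes around E-cadherin, listed because Fxyd5 affects adhesion, edgeR called 0, DESeq2 called 1, and 2 had an unadjusted edgeR p under 0.05, with the smallest p for Krt18 at 0.79 (adjusted p = 0.215).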

How the data were processed

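The authors deposited raw counts per gene for 17 kidney libraries. The libraries were QuantSeq 3′, per the labels' protocols, and the submitters' processing notes name STAR 2.7.3a, HTSeq 2.16.2 and the human build GRCh38, although the gene identifiers belong to mouse. Not given in the sources used here are the mouse build, the annotation, the strand setting and whether molecular identifiers were used. Of 55487 identifiers, 55141 matched a symbol. Lines for reads outside genes (19.3%) and ambiguous reads (0.533%) were left out. Nothing beyond 1 library per animal describes the replicates.

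Counts were tested with edgeR 4.0.16 in R 4.3.3 (quasi-likelihood F-test, robust off, filterByExpr minimum 10, TMM, no covariate), adjusted by Benjamini-Hochberg over 12131 genes, with an adjusted p under 0.05 called. The SE is the fold change divided by the square root of F. CPM use TMM factors, and log2 CPM a prior count of 2. Genes failing the filter were fitted among 25107 genes with any count. DESeq2 1.42.0 and exact permutation tests were run beside it, and the fits were tested on simulated data. Tests of 3 ratios and 12 within-group correlations were exact. Libraries of a group differed by more than sampling noise (chi-square over its degrees of freedom at least 3.83). Members and lists were chosen with earlier results of these data known, and some genes of these lists are not reported here. Genes named are the members, the other counted genes of the pump and FXYD list, in other lists up to 4 called genes (otherwise the smallest p), and 3 genes most like each member with a mean log2 CPM of at least 4. Other settings tried were scaling, filter, mitochondrial genes, DESeq2, replicate block and libraries left out. Intervals are at 95%.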

Additional observations from a re-analysis of the deposited data

Results flagged for a closer look

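Values were searched in 26 groups for a library whose gap to its nearest neighbour, relative to the group's range, passed Dixon's limit at the 95% level, which chance does in about 1 of 20 groups. The search found 1. The Atp1b3 share of the 2 β counts was 2.38% in db/m replicate 8, far above its group.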

How the results depend on the processing

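The log2 fold changes of Atp1b1, Fxyd2, Fxyd5 and Atp12a were above 0 under every setting run, and Atp4a was called in each. Replicate numbers are shared by the groups, but deviations of same-numbered libraries had r of -0.45 to 0.21, and 1 of 8 matched its own number best. Expression thus showed no pairing by number, which cannot show whether the animals were paired. With the replicate block, 194 genes were called higher and 231 lower (474 and 423 without), and in the 6 pathway lists 4 higher and 0 lower (11 and 1). No db/m library shares the number of db/db replicate 9, so with the block this library cannot add to the group difference. These fits therefore differ in that library as well as in the block. Without the block, leaving out db/db replicate 9 alone also lowered both counts of all genes called, but by less. Leaving out 1 library gave 324 to 654 higher, 324 to 592 lower, and 9 to 12 higher and 1 lower in the lists. The members then ranged from 0.23 to 0.38 (Atp1b1), -0.054 to 0.15 (Atp1b3), 0.15 to 0.31 (Fxyd2), 0.12 to 0.33 (Fxyd5) and 2.15 to 3.19 (Atp12a). The Atp1b3 share difference ranged from -0.283 to -0.0289, the Fxyd2 to Atp1b1 ratio from -0.114 to -0.0405 and the Fxyd5 to Fxyd2 ratio from -0.165 to 0.139. Atp1b3, near 0, changed sign to 0.0054 with RLE scaling, 0.0056 without mitochondrial genes, 0.0051 without the filter, 0.00551 in DESeq2, 0.023 with the block, 0.20 without both replicate 8 libraries, 0.090 without db/db replicates 7 and 8 (a setting chosen after seeing the data) and 0.028 as mean log2 CPM. Past the threshold elsewhere were Atp1b1 by permutation (0.30, unadjusted) and Atp12a in DESeq2 (2.58), by permutation (1.13, unadjusted) and without both replicate 8 libraries (3.26), where the share difference was 0.0267 and the Fxyd5 to Fxyd2 ratio 0.17. Among other family genes the sign changed for Fxyd4 (-0.060 with the block, -0.083 to 0.16 without 1 library), Fxyd6 (0.040 without both replicate 8 libraries, 0.0068 without db/db replicates 7 and 8, -0.11 to 0.086) and Fxyd1 (-0.24 to 0.090). The causes were not tested. Of the 5 members Atp12a had the fewest reads, 32 in db/db and 5 in db/m.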
